A study of Mus musculus with 7 samples.

Results

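The C/EBP genes described here are the 6 mouse genes named Cebp (Cebpa, Cebpb, Cebpd, Cebpe, Cebpg and Cebpz). They are called the family below, although Cebpz shares only the name. Anti-HA CUT&Tag peaks near these genes were taken from hi-77-/- progenitors expressing GATA2 or 9aa-Ins. A peak was assigned to a gene when its summit lay within 100 kb of the gene start in the GENCODE M21 annotation of mm10. By this rule, 11 of 6254 GATA2 peaks and 2 of 1079 9aa-Ins peaks were near the 6 genes, which are 6 of 21938 protein-coding genes. Because Cebpa and Cebpg start 62.7 kb apart on chromosome 7, 3 GATA2 peaks and 1 9aa-Ins peak counted for both genes, giving 14 GATA2 and 3 9aa-Ins pairs of gene and peak. The rule takes the genes by name and uses no peak value, although the genes were chosen with earlier results of these data known.

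All libraries came from hi-77-/- cells, HoxB8-immortalized fetal liver progenitors that lack a distal Gata2 enhancer and produce little GATA2 of their own. The cells carried a retrovirus encoding GATA2 or 9aa-Ins, each with an HA tag. 9aa-Ins is a form of GATA2 whose zinc fingers are set apart by extra amino acids. The infected cells were collected by GFP sorting after 3 days of culture with β-estradiol. Sorted cells of a condition were pooled before being split into 2 anti-HA replicates, and each deposited list is labelled as holding both replicates merged. The study's methods describe merging of peaks called per replicate, while each list has a single background, so whether a pileup counts the reads of both replicates or of 1 was not settled. No value below therefore has an SD or a test between replicates, and infections, sorts and antibody reactions cannot be told apart from the construct. The series labels 3 further libraries as made with anti-GATA2 antibody, which were not analysed here. A control without HA-tagged protein was not analysed here either, so HA signal unrelated to GATA2 could not be subtracted.

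CUT&Tag maps a chromatin protein by tethering a transposase to the antibody that recognizes it, and the tagged fragments pile up around the bound site. Peak height is given below as pileup, the number of reads covering the summit of a peak, with an exact 95% Poisson interval that covers counting error only. The authors' fold enrichment, pileup plus 1 over the genome-wide background plus 1, is given beside it. The background was 0.464 reads with GATA2 and 0.455 reads with 9aa-Ins, which differ by a factor of 1.02, and no called peak had fewer than 9 reads in either list. The median pileup was 15 reads with GATA2 and 13 reads with 9aa-Ins.

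C/EBP proteins are basic leucine zipper transcription factors that bind DNA as dimers, and several of them direct progenitors towards granulocytes and monocytes. C/EBPα, encoded by Cebpa, is required for commitment to the granulocyte and monocyte lineages. C/EBPε, encoded by Cebpe, acts later and controls the secondary granule genes of maturing neutrophils. C/EBPβ and C/EBPδ, from Cebpb and Cebpd, are induced by cytokines and inflammation. C/EBPγ, from Cebpg, lacks a strong activation domain and mainly serves as a dimer partner. Cebpz shares the name, but its product is a CCAAT-binding factor without the leucine zipper. GATA2 binds the motif WGATAR, which is AGATAA or AGATAG or TGATAA or TGATAG, and is itself a regulator of early progenitors.

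The sequence under the highest peak of the family, downstream of Cebpe, is printed first because it holds GATA motifs and C/EBP words together. The window reaches 100 bp to each side of the GATA2 summit, at chr14:54705878-54706078, on the forward strand of mm10, 5′ to 3′, while Cebpe is transcribed from the reverse strand. Capitals mark WGATAR, here in its reverse complement.
Cebpe +6.2 kb GATA2 summit: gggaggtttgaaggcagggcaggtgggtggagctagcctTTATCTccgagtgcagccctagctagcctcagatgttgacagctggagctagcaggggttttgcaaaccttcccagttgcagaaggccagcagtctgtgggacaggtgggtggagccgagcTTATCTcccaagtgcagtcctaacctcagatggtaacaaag
The middle of the same window, at chr14:54705948-54706008, follows with capitals on matches to TTGCNNAA, a word of the C/EBP consensus, searched on both strands.
Cebpe +6.2 kb C/EBP words: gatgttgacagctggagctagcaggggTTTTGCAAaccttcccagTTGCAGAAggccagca
A 9aa-Ins peak overlapped one end of this GATA2 peak, at chr14:54706246-54706450, and the bases in both peaks are shown because they hold no WGATAR.
Cebpe bases in both peaks: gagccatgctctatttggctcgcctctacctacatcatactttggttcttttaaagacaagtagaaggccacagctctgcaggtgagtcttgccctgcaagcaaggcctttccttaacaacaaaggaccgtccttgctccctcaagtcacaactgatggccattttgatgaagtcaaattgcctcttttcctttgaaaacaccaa

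Only 1 other GATA2 summit of the family had WGATAR within 100 bp. It lies in an intron of Pepd downstream of Cebpg, and its window at chr7:34969119-34969319, forward strand, carries WGATAR in capitals.
Cebpg +87.4 kb GATA2 summit: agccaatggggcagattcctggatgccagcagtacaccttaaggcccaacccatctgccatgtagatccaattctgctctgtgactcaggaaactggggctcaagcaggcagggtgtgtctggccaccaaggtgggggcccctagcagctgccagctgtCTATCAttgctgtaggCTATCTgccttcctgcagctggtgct
The sequences at Cebpa and Cebpd are shown for contrast, because peaks there covered the gene start without WGATAR. At Cebpa, the bases found in both the GATA2 and the 9aa-Ins peak were chr7:35118985-35119195, all upstream of the gene start.
Cebpa bases in both peaks: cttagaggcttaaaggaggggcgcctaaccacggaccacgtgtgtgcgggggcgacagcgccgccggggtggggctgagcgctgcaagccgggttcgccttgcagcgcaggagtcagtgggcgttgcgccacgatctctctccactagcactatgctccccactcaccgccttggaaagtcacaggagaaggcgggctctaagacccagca
At Cebpd, the upstream part of the GATA2 peak was chr16:15887137-15887285, on the strand of the gene.
Cebpd upstream part of the GATA2 peak: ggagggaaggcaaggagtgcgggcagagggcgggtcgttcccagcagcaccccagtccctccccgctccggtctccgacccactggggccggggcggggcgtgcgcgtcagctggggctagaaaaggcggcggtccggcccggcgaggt

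GATA2 peaks lay near 5 of the 6 genes, where 52.1% of protein-coding genes had at least 1 such peak. Cebpg had 4 GATA2 peaks, Cebpa, Cebpb and Cebpe had 3 each, Cebpd had 1 and Cebpz had none. Of the 6 genes, 4 had at least 3 GATA2 peaks, a number reached by 19.0% of protein-coding genes, and all the GATA2 peaks of Cebpa were among those counted for Cebpg. 9aa-Ins peaks lay near Cebpa, Cebpe and Cebpg, which is 3 of 6 genes beside 18.6% of protein-coding genes, and the peak of Cebpg was that of Cebpa. With only 6 genes and a shared neighbourhood, no test was made of these counts.

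**Figure D1:**
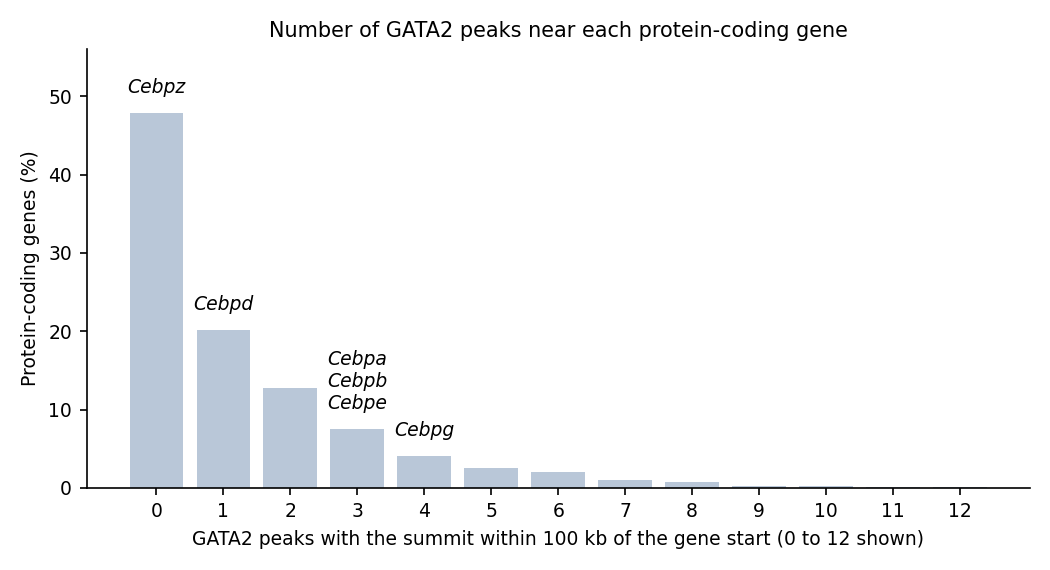
Number of GATA2 peaks within 100 kb of each protein-coding gene (horizontal axis) against the percentage of 21938 genes with that number (vertical axis), with the C/EBP genes written above their bars. Cebpg, Cebpa, Cebpb and Cebpe sit at 3 or 4 peaks, while the median gene has 1.

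Pileups at the 11 GATA2 peaks ranged from 10 to 47 reads with a median of 13 reads, below the median of 15 reads over the whole list, and 8 of the 11 did not exceed that list median. The other 3 had 17, 22 and 47 reads. The 2 9aa-Ins peaks had 10 and 11 reads, both below the median of their list. The peaks of 47 and 22 reads both lay downstream of Cebpe and were reached by 1.39% and 19.3% of the GATA2 list.

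**Figure D2:**
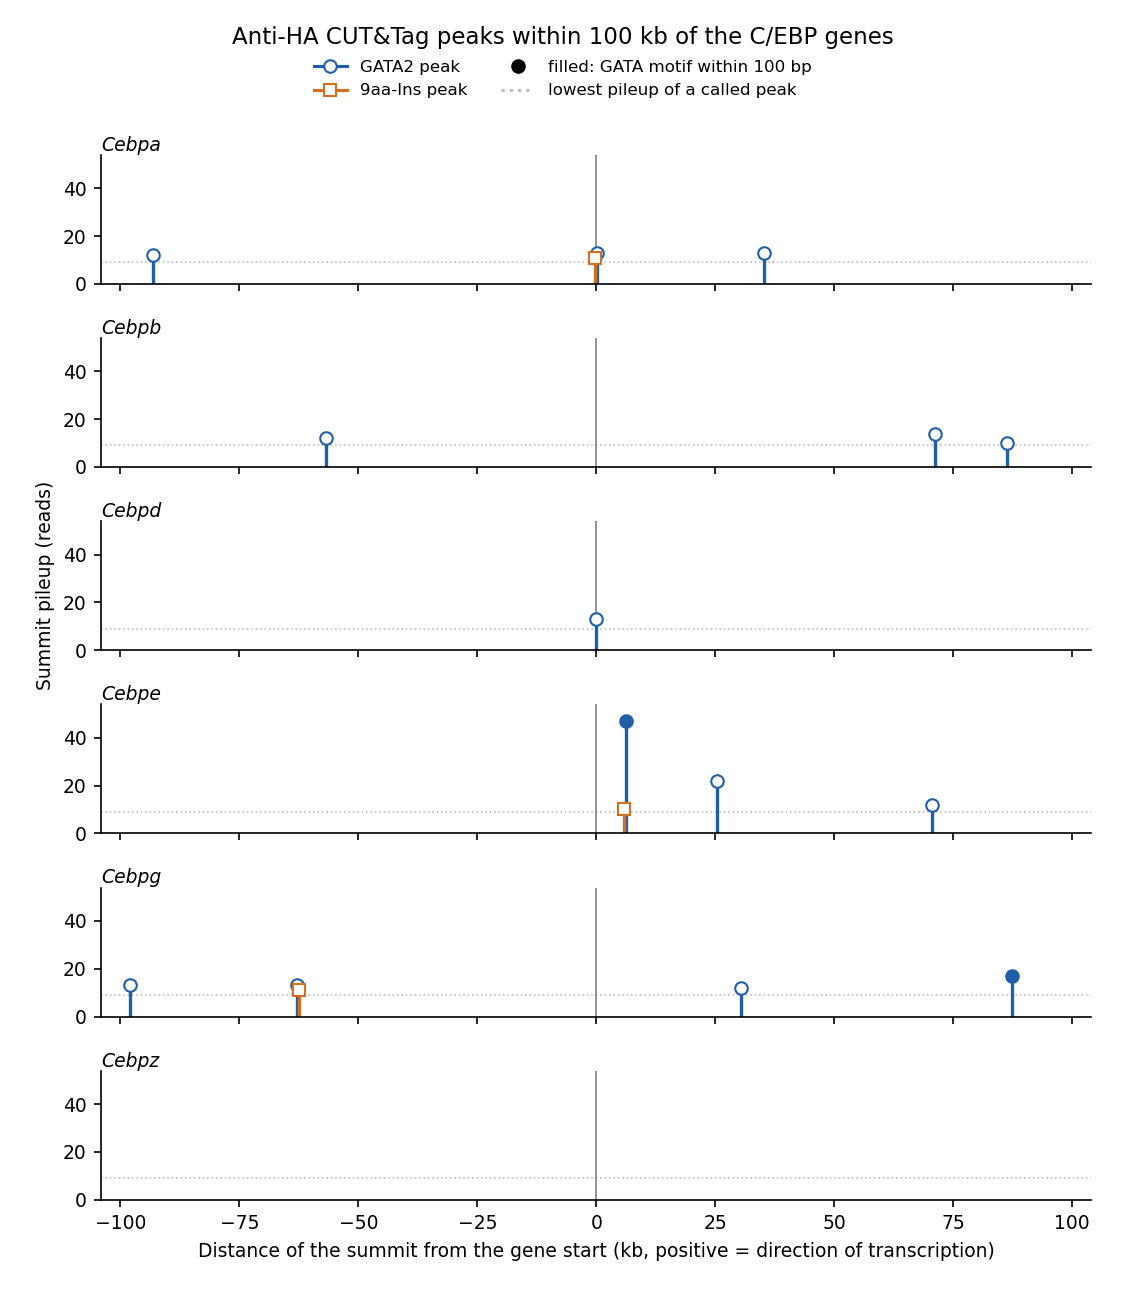
Summit pileup in reads (vertical axis) against the distance of the summit from the gene start in kb (horizontal axis), for each C/EBP gene. Blue circles are GATA2 peaks, orange squares 9aa-Ins peaks and filled symbols have WGATAR within 100 bp, and the dotted line marks the lowest called pileup of 9 reads. The GATA2 peak of 47 reads near Cebpe is the highest, and peaks of Cebpa reappear in the panel of its neighbour Cebpg.

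Cebpe (ENSMUSG00000052435.7, chromosome 14, 54710360 to 54712174, reverse strand), the gene for the factor of late granulocyte maturation, had the highest GATA2 peak of the family. This peak, at chr14:54705636-54706450, spanned 815 bp between genes, and its summit was 6.2 kb downstream of the Cebpe start, which was also the nearest protein-coding start. Its pileup was 47 reads (interval 34.5 to 62.5) and its fold enrichment 32.8, so that only 1.39% of the GATA2 list reached it. A GATA2 peak of at least this height lay within 100 kb of 1.53% of protein-coding genes. A C/EBP-bound enhancer downstream of Cebpe is known from mouse granulocyte precursors, and whether this peak covers it was not examined.

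The Cebpe peak held several motifs near its summit. Within 100 bp of the summit it had 2 copies of AGATAA, 58.5 bp to the left and 62.5 bp to the right on the forward strand, and a TGATAG lay 210 bp to the right. At least 2 WGATAR within 100 bp were found at 16.8% of GATA2 peaks outside promoters, where this peak lies, and also at the peak 87.4 kb downstream of Cebpg. The C/EBP word TTGCAAAA was centred 0.5 bp from the summit and TTGCAGAA 18.5 bp to its right, where at least 2 such words occurred at 0.521% of GATA2 peaks outside promoters. The E-box word CATCTG, read by factors such as SCL/TAL1, lay on the reverse strand 29.5 bp to the left and 88.5 bp to the right. No match was found to GAGGAAG, a word for PU.1, or to TGTGGT, a word for RUNX1, in this window.

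The Cebpe peak contained a near-repeat around its C/EBP words. A stretch of 40 bases at chr14:54705961-54706000, over the summit, matched a second stretch 120 bp away at chr14:54706081-54706120 in 32 of 40 bases (80%). The copies are shown on the forward strand with C/EBP words in capitals, and TTGCAGAA is in the first copy only. The WGATAR and E-box words lay outside these 40 bases but recurred at nearly the same distance, AGATAA 121 bp apart and CATCTG 118 bp apart.
First copy: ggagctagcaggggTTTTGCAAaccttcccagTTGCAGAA
Second copy: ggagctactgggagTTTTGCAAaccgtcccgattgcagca
A match at least this good was found inside 2.05% of GATA2 peaks, and inside 5.98% of the 418 peaks at least as wide. None of the other 10 GATA2 peaks of the family had an internal match above 28 of 40 bases. How reads were divided between the copies during alignment was not tested.

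At the same locus, a 9aa-Ins peak was called at chr14:54706246-54706462 with 10 reads (interval 4.8 to 18.4) and a fold enrichment of 7.56, 1 read above the lowest pileup of its list. It shared 205 bp with the GATA2 peak, which was 94.5% of the 9aa-Ins peak and 25.2% of the GATA2 peak. The summits were 364 bp apart, a gap reached by 6.89% of the GATA2 peaks that overlapped a 9aa-Ins peak, where the median gap was 92 bp. The 9aa-Ins summit lay inside the GATA2 peak, the GATA2 summit lay outside the 9aa-Ins peak, and no WGATAR lay within 100 bp of the 9aa-Ins summit. Set on the backgrounds of their lists, the GATA2 summit was 4.61 times as high as the 9aa-Ins summit, with a counting interval of 2.3 to 10.2. This ratio sets summits at different bases side by side, at the highest peak of the family, and its interval covers counting error in 2 merged lists and not the spread between replicates.

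**Figure D3:**
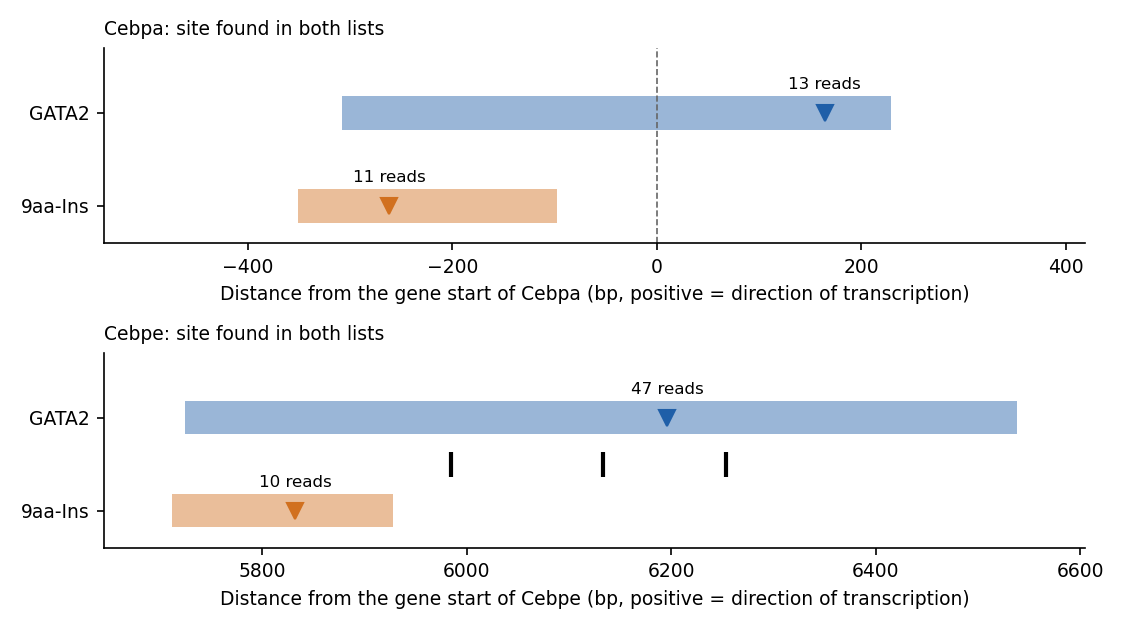
Extent of the GATA2 (blue) and 9aa-Ins (orange) peaks at the 2 sites found in both lists, as distance in bp from the gene start of Cebpa (dashed line, upper panel) and of Cebpe (lower panel). Triangles are summits with their pileup, and black ticks are WGATAR in the GATA2 peak. Each 9aa-Ins peak lies mostly inside one end of the GATA2 peak, with summits 426 bp apart at Cebpa and 364 bp apart at Cebpe, and the ticks at Cebpe fall outside the 9aa-Ins peak.

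The other GATA2 peaks near Cebpe were nearer to other genes. At 25.5 kb downstream, chr14:54686221-54686904 had 22 reads (interval 13.8 to 33.3) and a fold enrichment of 15.7. Its summit lay in coding exon sequence of Acin1, a gene for a protein of RNA processing and apoptosis, 229 bp from the Acin1 start, and at the promoter of 1700123O20Rik. No WGATAR was within 100 bp, although TTATCT, the reverse complement of AGATAA, occurred further out in the peak. At 70.5 kb downstream, chr14:54641488-54641786 had 12 reads (interval 6.2 to 21) and lay 317 bp upstream of Cdh24, a cadherin gene, in an intron of Gm17606. Neither peak overlapped a 9aa-Ins peak.

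Cebpa (ENSMUSG00000034957.10, chromosome 7, 35119293 to 35121928, forward strand), which encodes the factor of granulocyte and monocyte commitment, had a GATA2 peak over its start and another 35.2 kb downstream. The peak over the start, chr7:35118985-35119522, had 13 reads (interval 6.92 to 22.2) and a fold enrichment of 9.56, with its summit 164 bp inside the gene in coding exon sequence. GATA2 peaks over the gene start were found at 2 of the 6 genes, Cebpa and Cebpd, and at 9.38% of protein-coding genes. A 9aa-Ins peak at chr7:35118942-35119195 had 11 reads (interval 5.49 to 19.7) and a fold enrichment of 8.25, with its summit 262 bp upstream of the start. It ended before the start, so that 9aa-Ins peaks covered the start of 0 of the 6 genes, beside 1.90% of protein-coding genes.

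At the Cebpa start, the summits of both constructs were low and of like height. The peaks shared 211 bp, 83.1% of the 9aa-Ins peak and 39.2% of the GATA2 peak, and their summits were 426 bp apart, with the 9aa-Ins summit inside the GATA2 peak and the GATA2 summit outside the 9aa-Ins peak. On the backgrounds of the lists, GATA2 over 9aa-Ins had a ratio of 1.16 and a counting interval of 0.479 to 2.86, an interval that overlaps the one at Cebpe. As at Cebpe, the ratio sets summits at different bases side by side, and its interval leaves out the spread between replicates. So wide an interval shows neither likeness nor difference. No WGATAR was found in the GATA2 peak. The GATA2 summit window was 75.1% G and C, beside a median of 58.2% over the GATA2 list. The only 9aa-Ins summit of the family inside a promoter, defined as 2 kb upstream to 100 bp downstream of a protein-coding transcript start, was this one, and 3.69% of protein-coding genes had such a summit.

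The distal Cebpa peak, chr7:35154316-35154915, had 13 reads (interval 6.92 to 22.2) and lay between genes, 31.9 kb from the start of Slc7a10, an amino acid transporter gene. It did not overlap a 9aa-Ins peak. WGATAR was absent within 100 bp of the summit but present once in the peak, 234 bp away, and its surroundings at chr7:35154694-35154719 are shown with the motif in capitals.
Cebpa +35.2 kb motif: catttccaacTGATAAcaggatgagg

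Cebpg (ENSMUSG00000056216.9, chromosome 7, 35046422 to 35056573, reverse strand), the gene for the dimer partner, had no GATA2 peak closer than 30.4 kb. Its highest peak, chr7:34969028-34969377, was 87.4 kb downstream in an intron of Pepd, which encodes a dipeptidase, and 56.8 kb from the Pepd start. It had 17 reads (interval 9.9 to 27.2) and a fold enrichment of 12.3, and did not overlap a 9aa-Ins peak. WGATAR lay 61.5 and 77.5 bp to the right of the summit, with a further match, AGATAG, 148 bp to the right in the same peak. The match at 77.5 bp followed an E-box on the reverse strand with a gap between 6 and 14 bp. This composite of CANNTG and WGATAR, in which GATA factors bind beside SCL/TAL1, was searched with results known and occurred at 5.36% of GATA2 peaks outside promoters and at 3.01% of all. The peak 30.4 kb downstream, chr7:35026098-35026304, had 12 reads (interval 6.2 to 21), also lay in an intron of Pepd, and was 93.1 kb upstream of Cebpa. The remaining 2 peaks of Cebpg were those at the Cebpa start and 35.2 kb beyond it.

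Cebpb (ENSMUSG00000056501.3, chromosome 2, 167688915 to 167690418, forward strand), encoding a factor of inflammation and emergency granulocyte production, had GATA2 peaks only at a distance. The nearest, chr2:167632026-167632253, was 56.8 kb upstream with 12 reads (interval 6.2 to 21), and its summit was 27 bp inside Ube2v1, a gene for a ubiquitin-conjugating enzyme variant. Peaks 71.3 and 86.3 kb downstream, chr2:167760049-167760217 and chr2:167775185-167775375, lay between genes with 14 reads (interval 7.65 to 23.5) and 10 reads (interval 4.8 to 18.4). For both, the nearest start was that of Tmem189, which begins 907 bp from Cebpb. None of the 3 peaks had WGATAR within 100 bp or overlapped a 9aa-Ins peak. The peak at 71.3 kb had 1 C/EBP word, TTGCACAA, 43.5 bp to the left of its summit.

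Cebpd (ENSMUSG00000071637.5, chromosome 16, 15887286 to 15891031, forward strand), which encodes an acute-phase factor, had its GATA2 summit 4 bp inside the gene. The peak, chr16:15887137-15887648, had 13 reads (interval 6.92 to 22.2) and a fold enrichment of 9.56, the same height as at the Cebpa start. Its window was 74.6% G and C, held no WGATAR, and the peak did not overlap a 9aa-Ins peak. Cebpd alone among the 6 genes had a GATA2 summit in its promoter, beside 14.8% of protein-coding genes.

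Cebpz (ENSMUSG00000024081.9, chromosome 17, 78919006 to 78937066, reverse strand), which starts 70 bp from the mitochondrial assembly gene Ndufaf7, had no peak of either list within reach. A GATA2 peak of 16 reads at chr17:78835348-78835648 fell just outside, 102 kb from the start. On the inner side of the limit was the Cebpa peak of 13 reads, 97.9 kb from Cebpg. The nearest peak beyond the limit at Cebpd had 15 reads, 127 kb away.

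Most of these GATA2 peaks were closest to a gene outside the family. The nearest protein-coding start was that of a family member for 4 peaks, at Cebpa, Cebpd, Cebpe and Cebpg, and that of another gene for 7. Some of the 7 were near-ties. The Cebpb peaks at 71.3 and 86.3 kb were 70.3 and 85.4 kb from Tmem189, which starts 907 bp from Cebpb. The Cebpa peak at 35.2 kb was 31.9 kb from Slc7a10. Of the 11 peaks, 4 had the summit in a promoter, beside 47.8% of all GATA2 peaks, and 3 of these promoters belonged to Cdh24, 1700123O20Rik and Ube2v1. Peak calls do not show which gene a distal site acts on.

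Of the 11 GATA2 peaks, 2 overlapped a 9aa-Ins peak by at least 1 bp, which is 18.2% beside 15.3% of the whole GATA2 list. The count was 0 with a reciprocal overlap of 50%, 0 with summits within 200 bp, and 0 at a q-value limit of 1e-10. Both 9aa-Ins peaks of the family were among these. For the other 9, depth set how far an absence could be read. If 9aa-Ins had the same expected pileup as observed with GATA2, scaled to its background, the chance of falling below 9 reads would be 35.4% at the Cebpb peak of 10 reads, 17% at 12 reads, 11.1% at 13 reads, 7.05% at 14 reads and 1.51% at the Cebpg peak of 17 reads. At the Acin1 exon peak of 22 reads it would be 0.0757%. Because GATA2 peaks enter the list only when high enough, their observed pileups tend to lie above the expected ones, and the true chances would be larger. The chances given cover counting error only and leave out the spread between replicates, infections, sorts and antibody reactions. They are not p-values, and no loss of any single site was tested.

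**Figure D4:**
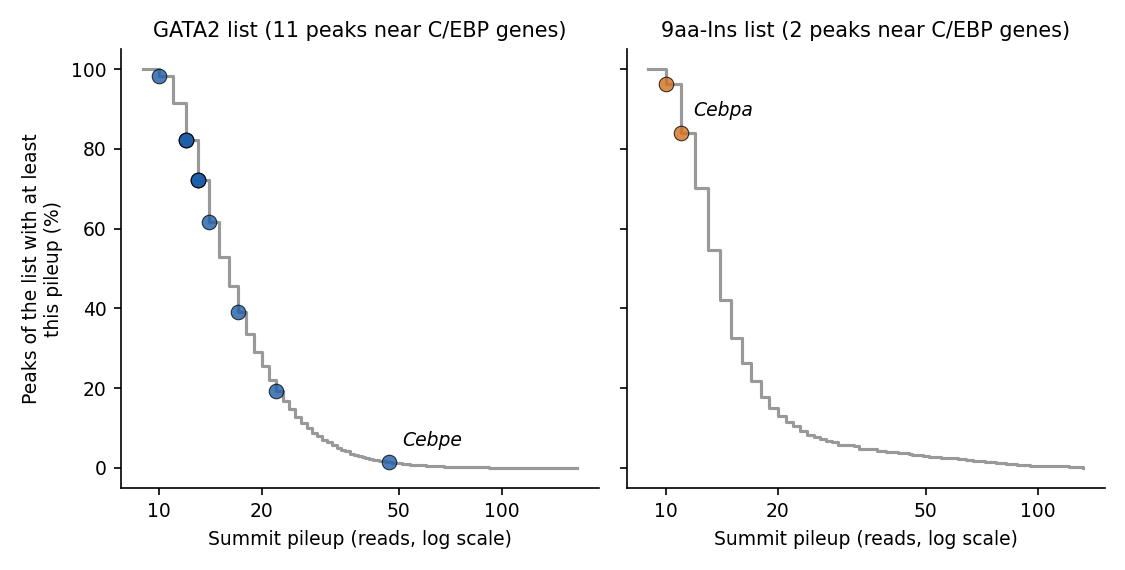
Percentage of peaks in the GATA2 list (left) and the 9aa-Ins list (right) with at least a given summit pileup (grey line, log scale on the horizontal axis), with the peaks near C/EBP genes as points. Darker points are overlaid peaks of equal pileup. The Cebpe peak is reached by 1.39% of GATA2 peaks, and both 9aa-Ins peaks lie at the low end of their list.

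WGATAR was found within 100 bp of 2 of the 11 GATA2 summits (18.2%), those downstream of Cebpe and Cebpg, beside 30.3% of all GATA2 peaks and 29.9% of equally long windows placed 2 kb away on both sides. Both were among the 7 peaks outside promoters, where the whole list had 45.4%. None of the 4 at promoters had it, where the whole list had 13.7%. The count of 2 became 0 within 50 bp of the summit, 4 anywhere in the peak and 4 with any GATA. Windows 2 kb from the 11 summits themselves held WGATAR in 36.4%. C/EBP words occurred at 2 of 11 summits, beside 5.76% of all GATA2 peaks and 8.11% of the windows 2 kb away. These 2 summits were outside promoters, where the whole list had 7.26%. The E-box word occurred at 2 of 11, beside 12.1% of all GATA2 peaks and 14.8% of those windows. PU.1 and RUNX words occurred at 0 of 11, beside 11.9% and 16.2% of all GATA2 peaks and 7.18% and 15.8% of those windows. These short words match by letters alone, and no match shows only that the letters are not in the window.

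**Figure D5:**
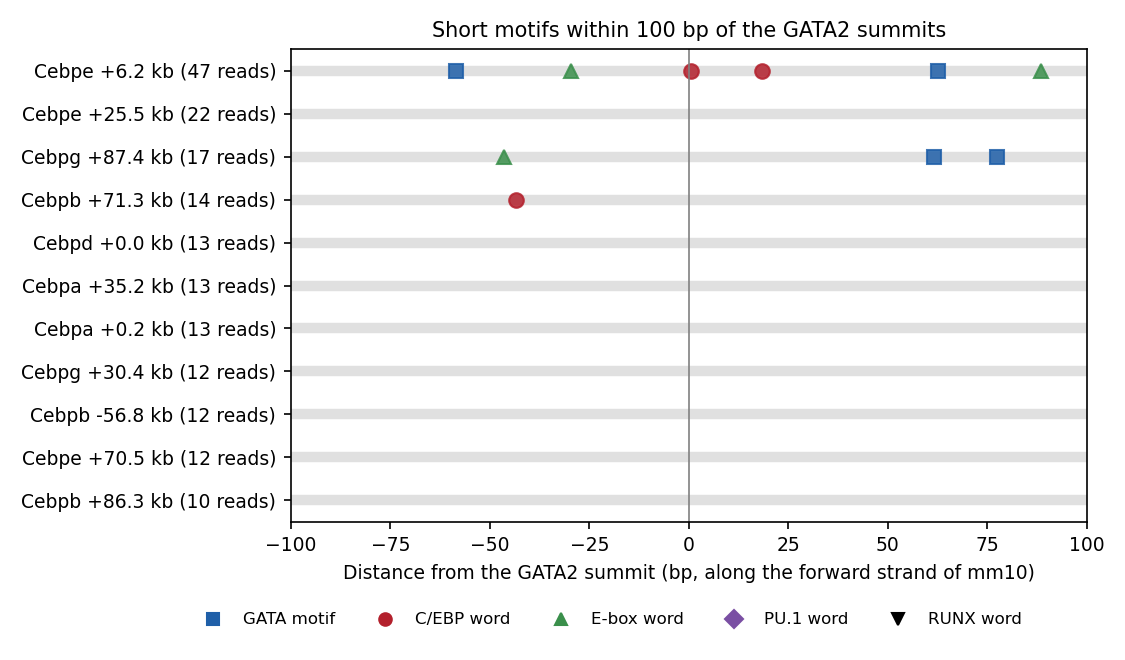
Positions of short motifs (symbols) within 100 bp of the 11 GATA2 summits, along the forward strand of mm10, with peaks ordered by pileup from the highest at the top. The Cebpe peak of 47 reads carries GATA and E-box words on both sides of its summit, with C/EBP words over the summit and to its right, the Cebpg peak of 17 reads carries 2 GATA motifs on one side, and most other windows are empty.

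Genes around the family in the same pathway were described by lists made with results known. Of 12 genes for regulators or dimer partners of C/EBP proteins, 12 had a GATA2 peak within 100 kb, beside 52.1% of protein-coding genes, and 5 a 9aa-Ins peak (Ddit3, Atf4, Trib1, Myc and Dbp), which is 41.7% beside 18.6%. GATA2 summits were in the promoters of 8 of them, namely Ddit3, Trib1, Trib2, Runx1, Gfi1, Myc, Nfil3 and Dbp (66.7% beside 14.8%), and 9aa-Ins summits in those of Ddit3, Trib1 and Myc (25% beside 3.69%). Because the list was made with results known, these shares support nothing further. Ddit3 encodes CHOP, an inhibitory C/EBP relative, and Trib1 and Trib2 encode pseudokinases that promote C/EBPα degradation. The highest pileup was 85 reads near Gfi1, a repressor needed for neutrophil maturation, 33.3 kb upstream.

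Of 18 genes activated by C/EBP proteins in myeloid cells, 10 had a GATA2 peak (55.6%), close to the 52.1% of protein-coding genes, and 7 had a 9aa-Ins peak (38.9%), beside 18.6%. The 7 were Csf2ra, Mpo, Elane, Prtn3, Ctsg, Lcn2 and Itgam, and Elane and Prtn3 are neighbours that share peaks. A GATA2 summit was in the promoter of 1, Csf2ra (5.56%, beside 14.8% of protein-coding genes), and 9aa-Ins summits in those of Csf2ra, Mpo and Ctsg (16.7%, beside 3.69%). Because this list too was made with results known, its shares support nothing further. The highest GATA2 pileups were 51 reads 33.9 kb upstream of Mpo, the myeloperoxidase gene, 36 reads 52.8 kb upstream of Csf1r, the macrophage colony-stimulating factor receptor gene, and 34 reads 94.1 kb upstream of Prtn3, the proteinase 3 gene. The GATA2 peaks at Mpo and Prtn3 overlapped 9aa-Ins peaks, and Mpo had more 9aa-Ins than GATA2 peaks, 14 beside 10, with a highest 9aa-Ins pileup of 55 reads. The highest peaks at Mpo were wide, chr11:87758878-87762352 with GATA2 and chr11:87803265-87808812 with 9aa-Ins. The median widths of the lists were 341 and 299 bp. Neither summit had WGATAR within 100 bp. How peak calling divides such broad signal was not tested, so these peak numbers are not numbers of sites. Among the 12 regulators and partners, Ddit3 and Myc followed Gfi1 with 32 GATA2 reads each at their promoters.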

How the data were processed

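Anti-HA CUT&Tag in hi-77-/- cells gave 1 peak list for GATA2 and 1 for 9aa-Ins, each with 2 replicates merged. The authors used Bowtie2 for alignment to mm10, left out duplicate and blacklisted reads, and called peaks with MACS3 at a q-value of 1e-06; versions were not given in the sources used here. The deposited columns were a score (10 times −log10 q), a fold enrichment (a ratio) and −log10 p-values and q-values. Pileups were recovered from the deposited fold enrichments, which came out whole in 100% of peaks within 0.01 reads. Read totals were not analysed here, and 0 columns belonged to other samples.

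Summits were linked to gene starts of GENCODE M21 (GRCm38, the assembly of mm10), with promoters from its basic transcripts. Motifs were searched on both strands in Python 3.11.15 with pysam 0.24.0, and Poisson and exact ratio intervals came from scipy 1.17.1. Overlap meant at least 1 bp. Scripts were tested on simulated data. The genes named are the 6 members, the gene nearest to or holding each summit and, from the regulator and target lists, those with a 9aa-Ins peak, with a promoter peak or with the 5 highest GATA2 pileups. The members, lists and motifs were chosen with earlier results of these data known. Alternatives changed the q-value limit, the reach, the gene start, the overlap, the motif and the promoter.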

Additional observations from a re-analysis of the deposited data

How the results depend on the processing

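Over the family, 26 of 44 alternative counts stayed within 1.5 times the reported count, and 18 did not. Limiting the reach to 10 kb left 3 GATA2 peaks at 3 genes, 1 of them with WGATAR, and 50 kb left 6 GATA2 peaks, 1 with WGATAR. At q of at most 1e-08, 1 9aa-Ins peak remained, with 1 overlap, and at 1e-10 there were 0 9aa-Ins peaks, 0 genes with one and 0 overlaps. Neither overlap met a reciprocal overlap of 50% (0) or summits within 200 bp (0). WGATAR within 50 bp of the summit was found at 0 GATA2 peaks, anywhere in the peak at 4, and any GATA at 4. With promoters of 3 kb to each side, 2 genes had a GATA2 summit there. Of 2 alternatives chosen after seeing the data, peaks nearest to a member start numbered 4, and peaks covering the gene start gave 2 genes. For single genes, 48 of 60 alternative counts stayed within 1.5 times and 12 did not. No paired analysis was possible because the lists used here give 1 value per peak and no value per replicate, and no replicate could be left out for the same reason. Both 9aa-Ins peaks at these genes were within 2 reads of the lowest called pileup of 9 reads, so calls there rest on few reads.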
